A study of Mus musculus with 20 samples.

Results

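Translation factors carry ribosomes through the start and the elongation of protein synthesis. In initiation, eIF2 brings the initiator tRNA to the small ribosomal subunit, eIF2B recharges eIF2 with GTP, eIF3 scaffolds the complex, and eIF4F reads the mRNA cap through its cap-binding subunit eIF4E, its scaffold eIF4G and its helicase eIF4A. The 4E-binding proteins occupy eIF4E and hold cap-dependent initiation back. In elongation, eEF1A delivers aminoacyl-tRNA, the eEF1B subunits recharge it, and eEF2 moves the ribosome along the message.

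The RNAs of these factors were followed in RNA immunoprecipitation (RIP) libraries of Tet1 and Tet2, enzymes that oxidise 5-methylcytosine. Members were all genes whose symbol begins with Eif1 to Eif6, Eef1 or Eef2, without the eIF2 kinases (Eif2ak), the former Eif2c names of Argonaute genes and the kinase Eef2k. This gave 57 of 23284 genes. The cells were wild-type mouse embryonic stem cells (ESCs) grown on gelatin with leukemia inhibitory factor, in which CRISPR-Cas9n had added a Flag, HA and Twin-Strep tag at the C-terminus of endogenous Tet1 (Tet1-KI), of Tet2 (Tet2-KI), or of a Tet2 made without its RNA-binding domain (Tet2-delta-RNA-binding-domain-KI, written Tet2dRBD here). Lines were grown from picked clones, and the labels give neither the number of clones nor separate cultures, so p-values measure only the spread between these libraries. Each anti-Flag IP has an input library of the same line and number, with 2 pairs for Tet1, 4 for Tet2 and 4 for Tet2dRBD. The study's methods describe IPs from cytoplasmic extract, a control with mouse IgG and inputs of total RNA. Neither IgG libraries nor an untagged line were analysed here. The part of cytoplasmic location and of nonspecific recovery in IP/input was not tested.

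Library totals ran from 21078995 to 37576638 expected counts over the 20 libraries. The ESC identity in the labels was met by the 10 inputs, with Pou5f1 between 2000.3 and 3191 TPM (a transcript abundance scaled by transcript length and library total) and the 7 ESC markers together between 13500.2 and 17305 TPM. The fibroblast, endoderm, mesoderm and neural lists summed to at most 64.4, 94.0, 1.39 and 20.96 TPM. Tet1 itself stood between 8.54 and 17.2 TPM and Tet2 between 2.49 and 9.21 TPM in input. The numbers in the deposited file names place Tet2 and Tet2dRBD replicate 1 in a first set of libraries (set A), replicate 2 in a second (set B), and replicates 3 and 4 with both Tet1 pairs in the remaining one (set C). Within a set, the counts of same-group libraries varied 2.93 to 18.8 times as much as counting error allows, against 153 to 610 times between sets. Replicates 3 and 4 were therefore much closer to each other than to replicates 1 and 2.

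Members whose RNA stood among the highest or lowest after RIP are printed here with the longest unbroken run of C and T in their coding sequence, a simple descriptor chosen here because Tet enzymes act on cytosine. Each line is 30 bases of the sense strand of the longest annotated coding sequence (GENCODE vM1, NCBIM37, the mm9 build), 5′ to 3′, with that run in capitals. Eif2a, Eif4g3 and Eif5b were among the highest in the RIPs, Eif4e2 and Eif4ebp1 differed most between Tet2 and Tet2dRBD, and Eif4e, Eif3i and Eif2s3x lay below input in every pair. Eef1e1, which also lay below input in every pair, is not printed because its window crosses an exon boundary.
Eif2a: attatactggCTCTCTTTTgcataagtatg
Eif4g3: cggagttcaCTTCCTTCCCCCatgtccgct
Eif5b: aggacgatgaCTCTTCCTTCaaaattaaga
Eif4e2: agtgactttcaTCTCTTCaaagaagggatt
Eif4ebp1: ccgggcggcacgCTCTTCagcaccaccccg
Eif4e: aaaggttaggaCTTCCTCCgaagatagtga
Eif3i: actcggctgCTCTCTCTCCCaactatgacc
Eif2s3x: ggtcagccccaTCTTTCCCgacaggatctc

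In genome order of the same build, these windows are exonic coding sequence of Eif5b at chr1:38076116-38076145 (plus strand, exon 4 of 24), Eif4e2 at chr1:89120988-89121017 (plus, exon 4 of 7), Eif2a at chr3:58352675-58352704 (plus, exon 10 of 14) and Eif4e at chr3:138218368-138218397 (plus, exon 8 of 8). The others are Eif3i at chr4:129270588-129270617 (minus, exon 8 of 11), Eif4g3 at chr4:137681895-137681924 (plus, exon 12 of 35), Eif4ebp1 at chr8:28370989-28371018 (plus, exon 1 of 3) and Eif2s3x at chrX:91457913-91457942 (minus, exon 1 of 12). Runs as long as those of Eif4ebp1 (6 bases) and Eif4e2 (7 bases) were held by 98.7% and 95.3% of 22533 protein-coding genes. A run as long as the 12 bases of Eif4g3 was held by 32.6% of them. Over the 56 members with an annotated coding sequence the median longest run was 9 bases, against 10 over all coding genes, and the median share of C and T was 45.8% against 48.3%. Across the 55 members tested below, Spearman's rho between the longest run and the mean log2(IP/input) was 0.34 in Tet1, 0.36 in Tet2 and 0.43 in Tet2dRBD. For the share of C and T in place of the run, rho was -0.03, -0.02 and -0.20. The run also rose with coding length (rho 0.62), and these genes share their libraries, so the values are a description.

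Before any IP, the members covered a wide range of input levels. Of 57, 54 had a mean of at least 1 TPM over the 10 inputs, 34 of at least 100 and 6 of at least 1000 TPM. Eef1a1, the main eEF1A gene, was the highest at 8409 ± 3774 TPM (SD, n = 10), followed by Eif5a (2758 ± 713), Eef1g (2488 ± 433), Eef2 (2086 ± 1099), Eif4a1 (1898 ± 396) and Eef1b2 (1373 ± 319). From Eif5a on, the ranges of mean ± 1 SD of neighbours in that order overlapped. These are bulk libraries, in which fewer cells of a type and less RNA per cell cannot be told apart. Together the members took 2.41% to 3.54% of all TPM in the inputs and 3.04% to 4.80% in the IPs.

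**Figure D1:**
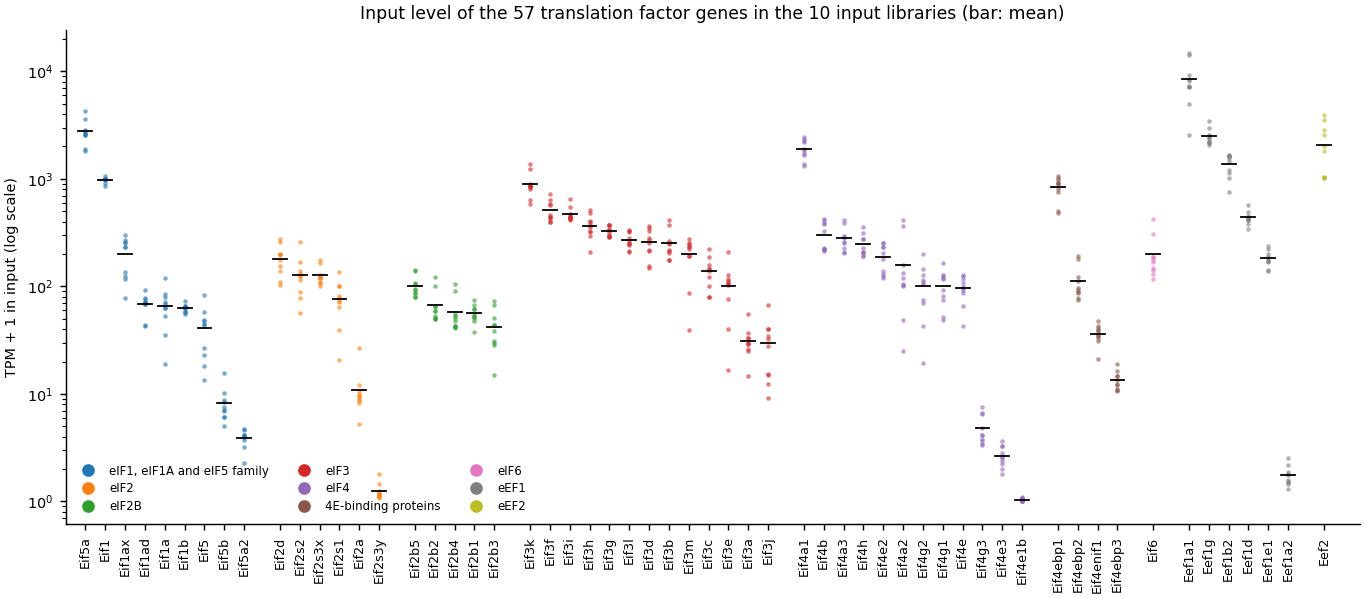
Input level of each member, as TPM + 1 on a log axis, grouped by role, with a point for each of the 10 input libraries and a bar at the mean. Levels run from Eef1a1 at a mean of 8409 TPM to Eif4e1b at 0.04 TPM, and the 13 eIF3 subunit genes span 28.5 to 895 TPM.

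Some paralogs were expressed very unequally, and others stood close in level. Eef1a2, the neuromuscular eEF1A, stood at 0.75 ± 0.37 TPM beside Eef1a1. The helicase genes followed the order Eif4a1, Eif4a3 (281 ± 70.2 TPM) and Eif4a2 (156 ± 128 TPM), of which the last pair had overlapping ranges of mean ± 1 SD. Among cap-binding genes, Eif4e2, which encodes the repressive homolog 4EHP, averaged 186 ± 54.4 TPM and Eif4e 94.8 ± 26.3 TPM, while Eif4e3 (1.65 ± 0.60) and Eif4e1b (0.04 ± 0.04) were near or under 1 TPM. The scaffold genes Eif4g1 (99.3 ± 36.6 TPM) and Eif4g2 (100.0 ± 52.5 TPM) could not be ordered, and Eif4g3 reached 3.81 ± 1.55 TPM. The X-linked eIF2 gamma gene Eif2s3x averaged 126 ± 24.8 TPM and its Y-linked copy Eif2s3y 0.25 ± 0.22 TPM. Eif5a2 stood at 2.87 ± 0.70 TPM beside Eif5a. TPM is a level per transcript length, so genes can be compared on it. Eef1a1, Eif4a1 and Eif5a have near-identical copies in the genome, among which the authors' estimation can split shared reads, so their levels are uncertain to that extent.

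By role, the highest input level belonged to Eif5a in the eIF1, eIF1A and eIF5 family, to Eif2d in the eIF2 group (180 ± 57.3 TPM), to Eif2b5 in eIF2B (101 ± 23.0), to Eif3k in eIF3 (895 ± 242), to Eif4a1 in eIF4 and to Eif4ebp1 among the 4E-binding proteins (835 ± 200). Eif6, which keeps ribosomal subunits apart, stood at 197 ± 94.1 TPM. Roles follow the gene symbols, so Eif5a is counted with eIF5. The inputs differed between library sets for several of these genes. Eif4a2 averaged 388 TPM in set A, 35.8 in set B and 119 in set C, and Eif6 averaged 122, 363 and 167 TPM.

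The first question was which of these RNAs stood higher in the anti-Flag IP of each line than in its input. The study's own criterion was a TPM higher in IP than in input, with 1 TPM added to each. Over the 54 members with a mean of at least 1 TPM in the 20 libraries, IP lay above input in every replicate for 36 members in Tet1, where 51.8% of all 12095 such genes did. It did so for 30 members in Tet2 (47.9% of genes) and for 18 in Tet2dRBD (32.2% of genes). IP lay below input in every replicate for 13 members in Tet1 (31.3% of genes), 8 in Tet2 (12.8%) and 5 in Tet2dRBD (9.23%). These shares of members, 66.7%, 55.6% and 33.3% above and 24.1%, 14.8% and 9.26% below, stood beside backgrounds in which 47.9% to 51.8% of genes passed in Tet1 and Tet2. The criterion counts genes above input on a scale where the median gene itself lay above it, by 0.06 and 0.12 log2 units in the Tet1 pairs, 0.13 to 0.38 in the Tet2 pairs and 0.03 to 0.27 in the Tet2dRBD pairs. After each pair was centred on that median, the counts above input in every replicate were 35 members in Tet1 (43.4% of genes), 19 in Tet2 (28.3%) and 7 in Tet2dRBD (19.6%).

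Across all 10 pairs of the 3 lines, 15 members lay above input each time, where 23.6% of the 12095 genes did. They were Eef1a1 and Eef1b2 of elongation, the eIF2B genes Eif2b1, Eif2b3 and Eif2b5, the eIF3 genes Eif3b, Eif3c, Eif3l and Eif3m, Eif2a, Eif4a3, Eif4e2, Eif4g1, Eif4g3 and Eif5b. The 4 that lay below input each time (6.28% of genes) were Eef1e1, Eif2s3x, Eif3i and Eif4e. Eef1e1 encodes a small scaffold protein of the tRNA synthetase complex that shares its name with the eEF1 subunits.

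The counts were then tested with edgeR's quasi-likelihood test over all genes, with the pair as a block and TMM scaling, which sets the bulk of genes to no change. Of the 57 members, 55 passed the filter on low counts, and Eif4e1b and Eif2s3y did not. In Tet2, 8 members were higher in IP than in input (14.6% of 13710 genes were) and 11 were lower (18.5% of genes). In Tet2dRBD, 2 were higher (7.4% of genes) and 8 lower (12.1%). In Tet1, with 2 pairs, 1 was higher (2.72% of genes) and 2 lower (3.18%). The members' shares of 14.5% and 20% in Tet2, 3.64% and 14.5% in Tet2dRBD, and 1.82% and 3.64% in Tet1 can be read against those of all genes, to which they were close except for the smaller share of higher calls in Tet2dRBD. The median fitted log2 ratio of the members was 0.11 in Tet1, 0.04 in Tet2 and 0.01 in Tet2dRBD, against -0.04, 0.00 and -0.01 over all genes.

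These directions depend on the scaling. On TPM without further scaling, limma with 1 TPM added called 23 members higher (35.0% of genes) and 4 lower (8.12%) in Tet2, 16 (23.5%) and 2 (4.59%) in Tet2dRBD, and 1 (3.59%) and 1 (1.05%) in Tet1, with the median of all genes at 0.23, 0.19 and 0.08. With library totals alone, edgeR called 11 higher (18.8% of genes) and 8 lower (14.9%) in Tet2 and 3 (14.1%) and 5 (6.91%) in Tet2dRBD. Without the pair as a block, edgeR called 1 member (Eef1e1) lower in Tet2 (1.85% of genes) and in Tet2dRBD (0.299%) and no other member in any line. With the block, replicates 3 and 4 count as separate pairs, although they lay close together. With these merged, 6 members were higher and 8 lower in Tet2, beside 1264 and 1927 of 13610 genes. In Tet2dRBD 2 were higher and 1 lower, beside 424 and 636 genes, and in Tet1 1 and 1, beside 186 and 130.

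**Figure D2:**
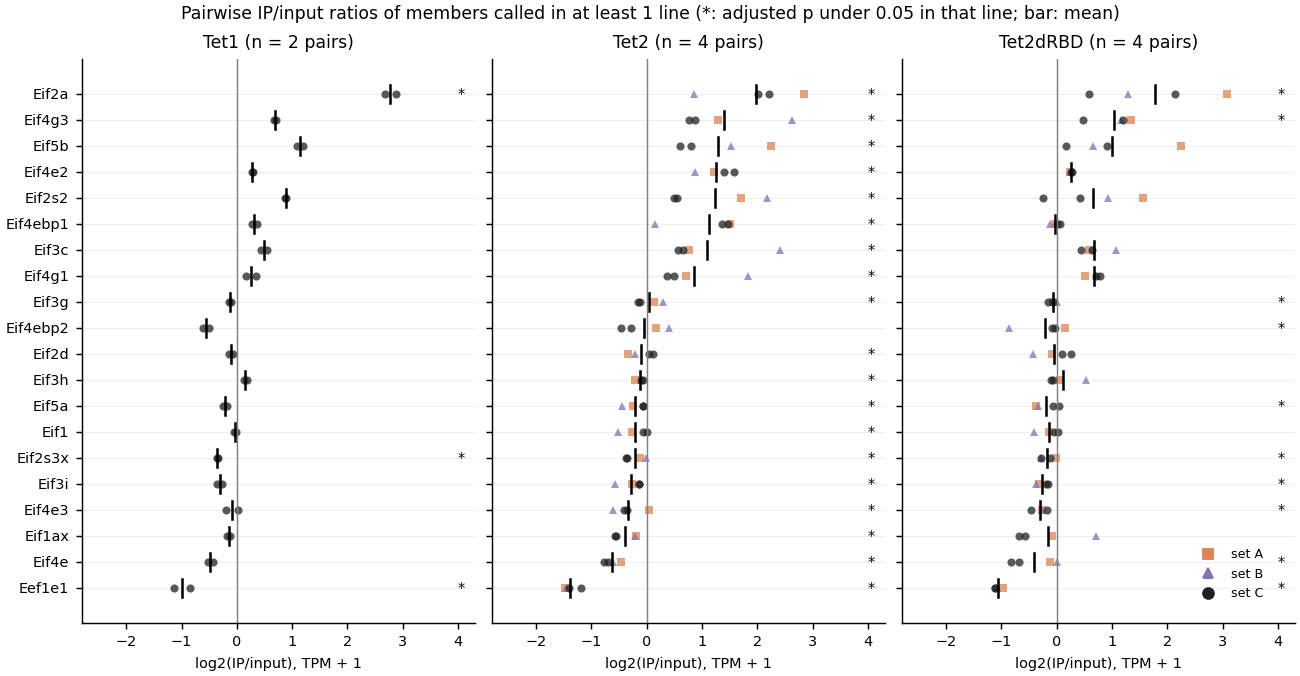
log2(IP/input) from TPM + 1 in each pair for the 20 members called in at least 1 line, one panel per line, with symbols for the library set, a bar at the mean and an asterisk where the edgeR adjusted p was under 0.05 in that line. Eif2a lies to the right and Eef1e1 to the left of 0 in every pair. Eif4e2 and Eif4ebp1 lie far to the right in Tet2, except Eif4ebp1 in replicate 2 (0.15), but nearer to 0 in Tet2dRBD.

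Eif2a encodes a factor that can deliver initiator tRNA without being a subunit of eIF2. Its RNA had the highest ratio of any tested member in each line. In Tet1 it rose from inputs of 11.1 and 8.59 TPM to IPs of 75.8 and 69.4 TPM. In Tet2 the inputs were 7.83, 9.58, 7.17 and 8.30 TPM and the IPs 62.6, 18.0, 37.0 and 36.6 TPM. In Tet2dRBD the inputs were 7.68, 4.21, 9.08 and 26.0 TPM and the IPs 72.7, 11.7, 43.2 and 39.6 TPM. Each IP lay above its own input, and IPs and inputs overlapped only in Tet2dRBD, where the input of replicate 4 was the highest and the IP of replicate 2 was low. The fitted log2 ratio was 2.75 (SE 0.56, edgeR adjusted p = 0.026) in Tet1, 1.80 (SE 0.40, adjusted p = 0.0066) in Tet2 and 1.61 (SE 0.40, adjusted p = 0.019) in Tet2dRBD. The Tet2dRBD call was lost without its replicate 1 (1.21, adjusted p = 0.071) or replicate 3 (1.501, adjusted p = 0.085). Exons of Eif2a overlap those of Serp1 on the opposite strand, and the sources used here do not say whether counting used the strand.

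Eef1e1 showed the opposite pattern. Tet1 inputs of 234 and 221 TPM fell to IPs of 130.1 and 100.4 TPM. In Tet2 the inputs were 172, 140, 181 and 167 TPM and the IPs 60.9, 50.4, 67.6 and 72.8 TPM. In Tet2dRBD the inputs were 173, 137, 197 and 188 TPM and the IPs 87.6, 64.4, 90.7 and 86.1 TPM. The inputs did not overlap the IPs in any line. The fitted log2 ratio was -1.14 (SE 0.16, edgeR adjusted p = 0.019) in Tet1, -1.71 (SE 0.12, adjusted p = 7.4e-05) in Tet2 and -1.35 (SE 0.12, adjusted p = 0.00026) in Tet2dRBD. The Tet2 and Tet2dRBD calls held in all 10 fits that each left out a pair.

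Of the eIF2 subunit genes, Eif2s3x (the gamma subunit, which binds GTP and the initiator tRNA) was lower after IP in every line. Its log2(IP/input) was -0.34 and -0.36 in the Tet1 pairs, -0.11, -0.01, -0.35 and -0.37 in the Tet2 pairs, and -0.01, -0.29, -0.12 and -0.28 in the Tet2dRBD pairs. On the TMM scale the fitted ratio was -0.50 (SE 0.12, edgeR adjusted p = 0.038) in Tet1, -0.53 (SE 0.08, adjusted p = 0.0013) in Tet2 and -0.45 (SE 0.08, adjusted p = 0.0060) in Tet2dRBD. Eif2s2, the beta subunit, behaved unlike it and was called higher in Tet2 (0.92, SE 0.29, adjusted p = 0.033). Its pair ratios in Tet2 were 1.71, 2.17, 0.49 and 0.55, so the pairs of sets A and B lay well above those of set C. The Eif2s2 call was lost without Tet2 replicate 1 (0.82, adjusted p = 0.11) or replicate 2 (0.66, adjusted p = 0.12). Eif2d, a noncanonical initiator tRNA factor, was lower in Tet2 (-0.42, SE 0.14, adjusted p = 0.035), a call that held in 4 of 10 fits without a pair and stood at -0.27 (adjusted p = 0.23) without replicate 1 and -0.32 (adjusted p = 0.15) without replicate 2. Eif2d exons overlap those of Rassf5 on the opposite strand. None of the 5 eIF2B genes passed edgeR's or DESeq2's test in any line, and the edgeR fitted ratio of Eif2b5 was 0.08, 0.18 and 0.01 in Tet1, Tet2 and Tet2dRBD. On log2(TPM + 1), limma called Eif2b1 (0.41, adjusted p = 0.010), Eif2b4 (0.34, adjusted p = 0.038) and Eif2b5 (0.49, adjusted p = 0.0022) higher in Tet2, and Eif2b1 (0.32, adjusted p = 0.042), Eif2b3 (0.80, adjusted p = 0.030) and Eif2b5 (0.28, adjusted p = 0.034) higher in Tet2dRBD.

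Loss of all 3 Tet1 calls followed the removal of either Tet1 pair, which leaves that line with a lone pair assumed to vary like the other lines. Eif2a then had an edgeR adjusted p = 0.30 without replicate 1 and 0.57 without replicate 2. Eif2s3x in Tet1 was also lost without Tet2 replicate 1, 3 or 4 and without Tet2dRBD replicate 3 (adjusted p = 0.053, 0.066, 0.061 and 0.069).

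Genes grouped here as the eIF1, eIF1A and eIF5 family include factors of start codon choice and subunit joining. Eif5a and Eif5a2 are in it by symbol only. Of this family, Eif5b alone was higher in Tet2, and Eif1ax, Eif1 and Eif5a were lower. Eif5b, the subunit-joining GTPase, went from inputs of 6.63, 7.37, 5.97 and 5.06 TPM to IPs of 35.04, 22.9, 9.62 and 9.56 TPM in Tet2, so that all IPs lay above all inputs. Its fitted ratio was 1.09 (SE 0.30, edgeR adjusted p = 0.019) in Tet2, 0.80 (SE 0.30, adjusted p = 0.087) in Tet2dRBD and 1.13 (SE 0.42, adjusted p = 0.14) in Tet1, while DESeq2 called it in all 3 lines (adjusted p = 0.00068 in Tet2, 0.017 in Tet2dRBD and 0.047 in Tet1). It missed the threshold without Tet2 replicate 1 (0.83, adjusted p = 0.071) or replicate 2 (1.08, adjusted p = 0.051). Eif5b exons overlap those of Rev1 on the other strand. Eif1ax (-0.71, SE 0.21, adjusted p = 0.025), Eif1 (-0.53, SE 0.13, adjusted p = 0.013) and Eif5a (-0.53, SE 0.14, adjusted p = 0.014) fell by less. Their mean TPM ratios in Tet2 were nearer to 0, at -0.39, -0.21 and -0.21, since the median gene lay above 0 on that scale. Without Tet2 replicate 1 none of these passed (adjusted p = 0.075 for Eif1ax, 0.079 for Eif1 and 0.085 for Eif5a), nor without replicate 2 (0.052, 0.051 and 0.055). Eif1ax was also not called without replicate 3 (adjusted p = 0.067) or replicate 4 (0.069). Eif5a was the only member of this family called in Tet2dRBD, where it was lower (-0.46, SE 0.14, adjusted p = 0.038), and it was lost there in 7 of 10 fits without a pair, among them the fit without Tet2dRBD replicate 1 (-0.35, adjusted p = 0.18).

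The 13 genes of eIF3, the scaffold of the initiation complex, divided into a few that passed edgeR's test and most that did not. Eif3c was higher in Tet2 (0.77, SE 0.25, edgeR adjusted p = 0.034), and Eif3i (-0.60, SE 0.13, adjusted p = 0.0056), Eif3h (-0.44, SE 0.14, adjusted p = 0.035) and Eif3g (-0.28, SE 0.10, adjusted p = 0.043) were lower. In Tet2dRBD, Eif3i (-0.54, SE 0.13, adjusted p = 0.016) and Eif3g (-0.35, SE 0.10, adjusted p = 0.030) were lower and none was higher. The Tet2dRBD call of Eif3i was lost without replicate 1 (-0.47, adjusted p = 0.083) or replicate 3 (-0.54, adjusted p = 0.075) of that line, and that of Eif3g held in 4 of 10 fits. The call of Eif3c rested on replicate 2, where IP was 842 TPM against an input of 157, while the other IPs of 318, 124 and 116 TPM stood against inputs of 186, 79.1 and 78.2. Without that pair its ratio was 0.41 (adjusted p = 0.056). Eif3g turned with the scaling and was at 0.03 in Tet2 on log2(TPM + 1). Its TMM call in Tet2 held in 2 of 10 fits without a pair, and that of Eif3h in 4 of 10. Without Tet2 replicate 1, Eif3g stood at -0.25 (adjusted p = 0.18) and Eif3h at -0.34 (adjusted p = 0.18).

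Eif3e, a subunit near the mRNA exit side, did not pass edgeR's test but had one of the 3 highest mean TPM ratios in Tet1 and in Tet2dRBD among members with a mean input of at least 5 TPM. Its pair ratios were 1.28 and 1.76 in Tet1, 1.26, 0.86, 0.58 and 0.48 in Tet2, and 1.22, 2.20, 0.44 and -0.38 in Tet2dRBD. The fitted ratio was 1.38 (SE 0.47, edgeR adjusted p = 0.11) in Tet1, 0.49 (SE 0.33, adjusted p = 0.27) in Tet2 and 0.59 (SE 0.35, adjusted p = 0.25) in Tet2dRBD, while DESeq2 called it higher in Tet1 (1.39, adjusted p = 0.022). Eif3k, the most abundant eIF3 RNA, had fitted ratios of 0.05, -0.33 and -0.37 in the 3 lines and passed in none with edgeR, DESeq2 or limma.

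The cap-binding and scaffold RNAs of eIF4F moved in different directions. Among scaffolds, Eif4g3 was higher in Tet2 (1.29, SE 0.26, edgeR adjusted p = 0.0042) and Tet2dRBD (0.94, SE 0.25, adjusted p = 0.026), and Eif4g1 in Tet2 (0.53, SE 0.18, adjusted p = 0.040). Eif4g3 inputs in Tet2 were 5.67, 3.82, 2.33 and 2.62 TPM against IPs of 15.3, 28.6, 5.11 and 5.18 TPM. The IPs of replicates 3 and 4 thus lay below the input of replicate 1, while each lay above its own input. The Tet2 call of Eif4g3 held in all 10 fits without a pair, and the Tet2dRBD call was lost without replicate 1, 2 or 3 of that line (adjusted p = 0.074, 0.068 and 0.094). Eif4g1 dropped to 0.28 (adjusted p = 0.091) without Tet2 replicate 2, and its Tet2 call held in 5 of 10 fits without a pair. Eif4g2, a scaffold that lacks the eIF4E-binding site, reached 0.93 (SE 0.36, adjusted p = 0.067) in Tet2 with pair ratios of 2.06, 2.10, 0.43 and 0.36, and was called there by DESeq2 (0.95, adjusted p = 0.014) and by limma (1.24, adjusted p = 0.016). None of the helicase genes passed edgeR's or DESeq2's test, with edgeR fitted ratios in Tet2 of -0.25 for Eif4a1, 0.06 for Eif4a2 and 0.30 for Eif4a3, which limma on log2(TPM + 1) called higher in Tet2 (0.62, adjusted p = 0.0044).

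Eif4e encodes the canonical cap-binding protein, and its RNA was lower after RIP. Tet1 inputs were 124 and 106 TPM and IPs 86.5 and 78.2 TPM. Tet2 inputs were 85.3, 64.2, 97.7 and 96.4 TPM and IPs 61.6, 41.9, 59.5 and 56.1 TPM. Tet2dRBD inputs were 90.7, 42.01, 116 and 126 TPM and IPs 83.0, 42.00, 72.2 and 70.4 TPM. Inputs and IPs did not overlap in Tet1 or Tet2, but in Tet2dRBD the input of replicate 2 was as low as its IP. The fitted ratio was -0.96 (SE 0.15, edgeR adjusted p = 0.0011) in Tet2, -0.69 (SE 0.15, adjusted p = 0.011) in Tet2dRBD and -0.63 (SE 0.21, adjusted p = 0.098) in Tet1. Without Tet2dRBD replicate 3 the value in that line was -0.58 (adjusted p = 0.064). The weakly expressed Eif4e3 was also called lower in Tet2 (-0.88, SE 0.20, adjusted p = 0.0071) and in Tet2dRBD (-0.88, SE 0.21, adjusted p = 0.016), from levels of 0.49 to 2.66 TPM in those libraries. The Tet2dRBD call of Eif4e3 was lost without replicate 1 (-0.90, adjusted p = 0.056) or replicate 3 (-0.75, adjusted p = 0.090). Exons of Eif4e3 overlap those of the protein-coding gene Foxp1 on the same strand, and the part of this overlap was not tested.

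Eif4e2 went the other way and was called higher in Tet2. Tet1 inputs were 139 and 130.2 TPM and IPs 168 and 159 TPM. Tet2 inputs were 118, 203, 229.5 and 229.2 TPM and IPs 273, 370.1, 607 and 682 TPM. Tet2dRBD inputs were 125, 179, 251 and 253 TPM and IPs 147, 212, 304 and 301 TPM. Every Tet2 IP lay above every Tet2 input, while the Tet2dRBD ranges overlapped. The pair ratios were 1.21, 0.86, 1.398 and 1.57 in Tet2 against 0.24, 0.24, 0.27 and 0.25 in Tet2dRBD and 0.27 and 0.28 in Tet1. The fitted ratio was 0.87 (SE 0.14, edgeR adjusted p = 0.0012) in Tet2, -0.02 (SE 0.13, adjusted p = 0.94) in Tet2dRBD and 0.08 (SE 0.19, adjusted p = 0.84) in Tet1. The Tet2 call held in all 10 fits without a pair.

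Eif4ebp1 encodes 4E-BP1, the eIF4E inhibitor that mTOR inactivates by phosphorylation. Tet2 inputs of 507, 912, 759 and 809 TPM stood against IPs of 1438, 1015, 1957 and 2239 TPM. Tet2dRBD inputs of 485, 1026, 921 and 904 TPM stood against IPs of 474, 939, 919.8 and 943 TPM, and Tet1 inputs of 972 and 1059 TPM against IPs of 1253 and 1278 TPM. All Tet2 IPs lay above all Tet2 inputs, though in replicate 2 by little, whereas the Tet2dRBD groups overlapped throughout. The fitted ratio was 0.82 (SE 0.22, edgeR adjusted p = 0.017) in Tet2, -0.30 (SE 0.22, adjusted p = 0.34) in Tet2dRBD and 0.17 (SE 0.31, adjusted p = 0.79) in Tet1. The Tet2 call was lost without replicate 1, 3 or 4 (0.75, 0.71 and 0.65, with adjusted p = 0.066, 0.079 and 0.079). Eif4ebp2, a related inhibitor, was lower in Tet2dRBD (-0.49, SE 0.14, adjusted p = 0.032) and had -0.36 (SE 0.14, adjusted p = 0.062) in Tet2 and -0.71 (SE 0.19, adjusted p = 0.055) in Tet1, where DESeq2 called it (adjusted p = 0.014). Its Tet2dRBD call was lost without replicate 1, 2 or 3 of that line (-0.55, -0.30 and -0.51, with adjusted p = 0.063, 0.12 and 0.11). It was also lost without either Tet1 pair and without Tet2 replicate 1 or 3.

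**Figure D3:**
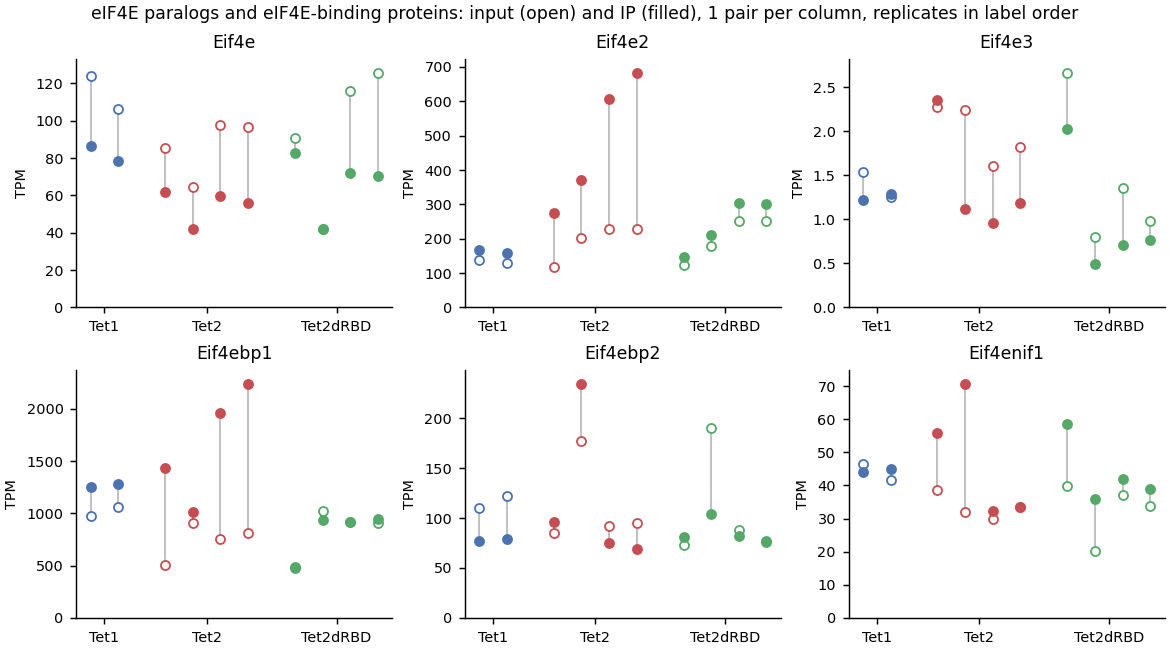
TPM of the eIF4E paralogs Eif4e, Eif4e2 and Eif4e3 and of the eIF4E-binding proteins Eif4ebp1, Eif4ebp2 and Eif4enif1, with a column for each pair in label order, open circles for input and filled circles for IP, on linear axes from 0. For Eif4e2 and Eif4ebp1 the filled circles rise above the open ones in Tet2 (to 682 and 2239 TPM in replicate 4) and stay close to them in Tet2dRBD.

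A comparison of Tet2 with Tet2dRBD sets the full protein against the protein without its RNA-binding domain. The lines were grown from picked clones, so an effect of the domain cannot be told apart from a difference between lines. No member passed the edgeR test of the difference between IP effects in either direction, where 0.0219% of 13710 genes were higher in Tet2 (3 genes) and 0.0% lower. At an unadjusted p under 0.05, 3 members and 416 genes differed, which is 5.45% of members and 3.03% of genes. These members were Eif4e2, Eif4ebp1 and Eef1e1. DESeq2 called 1 member, Eif4e2, higher in Tet2 (0.212% of genes), and limma on log2(TPM + 1) called none. The difference was 0.89 (SE 0.19, adjusted p = 0.38) for Eif4e2 and 1.12 (SE 0.31, adjusted p = 0.92) for Eif4ebp1. The larger ratio belonged to Tet2 for every replicate number, by 0.97, 0.63, 1.13 and 1.32 log2 units for Eif4e2 and by 1.54, 0.28, 1.37 and 1.42 for Eif4ebp1. Numbers were compared here only within library sets. With set C alone both passed, at 1.15 (SE 0.10, adjusted p = 0.00028) and 1.46 (SE 0.11, adjusted p = 0.00011). There 0.665% of 13379 genes were higher in Tet2. That fit rests on replicates 3 and 4, which lie close together, so its p-values measure the spread within 1 library set. With replicates 3 and 4 merged within Tet2 and within Tet2dRBD, the differences were 0.78 (SE 0.24) and 0.98 (SE 0.38), and neither passed. Without Tet2 replicate 2 the differences were 1.05 (adjusted p = 0.047) and 1.48 (adjusted p = 0.0076). Over the 21 settings run, the difference of Eif4e2 lay between 0.74 and 1.15 with adjusted p from 0.00028 to 1.00 and passed in 3, and that of Eif4ebp1 lay between 0.95 and 1.48 with adjusted p from 0.00011 to 1.00 and passed in 2. Eef1e1 was lower in Tet2 than in Tet2dRBD by a fitted difference of -0.36 (SE 0.16, adjusted p = 1.00).

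**Figure D4:**
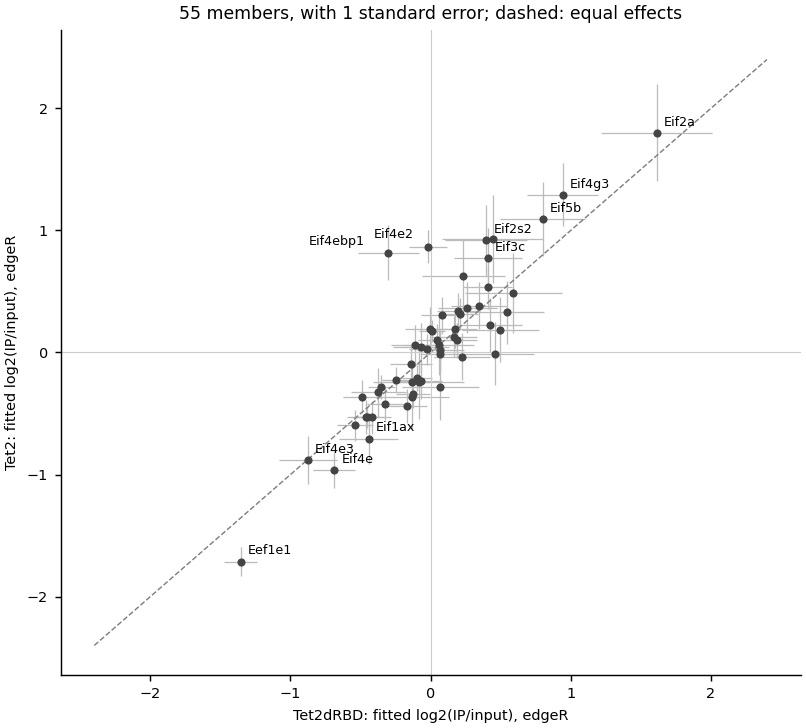
Fitted log2(IP/input) of the 55 tested members in Tet2 (vertical) against Tet2dRBD (horizontal), on edgeR's TMM scale with 1 standard error, and a dashed line where both are equal. Most members lie near the line, from Eef1e1 at -1.35 and -1.71 to Eif2a at 1.61 and 1.80, while Eif4e2 and Eif4ebp1 lie above it by 0.89 and 1.12.

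The members that were called in Tet2 and in Tet2dRBD overlapped in 9, which is 9 of the 19 in Tet2 and of the 10 in Tet2dRBD, each in the same direction. Over all genes, those called in both in the same direction were 51.4% of the 4540 called in Tet2 and 87.2% of the 2674 called in Tet2dRBD. All 3 called in Tet1 (Eif2a, Eef1e1 and Eif2s3x) were also called in both other lines in the same direction, as were 86.7% of the 809 genes called in Tet1. For Eif3i the difference was -0.06 (SE 0.18), for Eif2s3x -0.08 (SE 0.12), for Eif4g3 0.35 (SE 0.36), for Eif3h -0.27 (SE 0.20) and for Eif4e -0.28 (SE 0.21), in each case with edgeR adjusted p = 1.00. With errors of this size, equal effects are not shown.

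Between Tet1 and Tet2, no member passed (0.0% of genes were higher and 0.0% lower in Tet1). At an unadjusted p under 0.05 there were 2 members and 517 genes, which is 3.64% of members and 3.77% of genes, and neither DESeq2 nor limma on log2(TPM + 1) called a member. The lowest unadjusted p values belonged to Eif4e2 (-0.78, SE 0.23, edgeR adjusted p = 0.94) and Eef1e1 (0.57, SE 0.20, adjusted p = 0.94), followed by Eif3h (0.44, SE 0.24), Eif4ebp1 (-0.65, SE 0.38) and Eif4e3 (0.59, SE 0.35). Within set C, where all Tet1 pairs lie, 3 members passed as higher in Tet1 (1.14% of 13379 genes did) and 3 as lower (1.21%). Eif4e2 (-1.12, adjusted p = 0.00096), Eif4ebp1 (-1.08, adjusted p = 0.0013) and Eif4a3 were lower, and Eif1ax, Eif2s1 and Eif3e higher in Tet1. That fit rests on replicates that lie close together. With Tet2 replicates 3 and 4 merged, Eif4e2 was at -0.68 and Eif4ebp1 at -0.51, and no member passed.

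The inputs of Tet2 and Tet2dRBD show whether the factors themselves were expressed alike. No member passed the edgeR test between the 4 and 4 inputs (0.0% of 13178 genes were higher and 0.0% lower in Tet2dRBD), no member reached an unadjusted p under 0.05 where 1.88% of genes did, and neither DESeq2 nor limma called a member. The median input difference was 0.10 for members and 0.04 for all genes. The lowest unadjusted p values were those of Eif5b (0.49, SE 0.36), Eif2s2 (0.56, SE 0.41), Eif4e3 (-0.45, SE 0.42), Eif2a (0.50, SE 0.48) and Eif4a1 (0.21, SE 0.21). The inputs of Eif4e2 and Eif4ebp1 differed by 0.01 (SE 0.28) and 0.16 (SE 0.27). Within set C alone, 11 members passed as higher in Tet2dRBD (8.07% of 12776 genes did) and none as lower (10.1%), among them Eif4g1 (adjusted p = 0.0042), Eif3c (adjusted p = 0.0064) and Eif3d (adjusted p = 0.0066). That fit rests on the inputs of replicates 3 and 4, so its p-values measure the spread within 1 library set. These inputs varied 18.8 times as much as counting error allows in Tet2dRBD and 3.84 times in Tet2.

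The members' ratios followed transcript length in some pairs. Effective lengths were shorter for the 55 tested members (median 1870 bases) than for all 13710 tested genes (2670 bases). Spearman's rho between length and log2(IP/input) across the members was 0.36 and 0.65 in Tet2 replicates 1 and 2, and 0.01 and 0.00 in replicates 3 and 4. In Tet2dRBD it was 0.56, 0.40, 0.32 and -0.04, and in Tet1 0.13 and 0.29. Over all tested genes it was positive in every pair, from 0.14 to 0.54. The long RNAs Eif5b, Eif4g2, Eif3a, Eif4g3 and Eif4g1, with effective lengths of 5108 to 7729 bases, had Tet2 ratios from 0.72 to 2.24 in replicate 1 and from 1.51 to 2.62 in replicate 2, against 0.19 to 0.88 in replicates 3 and 4. The next longest member, the weakly expressed Eif5a2 (4924 bases), had lower Tet2 ratios of -0.08, 0.54, -0.24 and -0.09 in replicates 1 to 4. Length and library set move together with these ratios, and their part in the calls was not tested.

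mRNAs with a terminal oligopyrimidine tract, through which mTOR controls translation, include many elongation factor genes. Of 9 such members (Eef1a1, Eef1a2, Eef1b2, Eef1d, Eef1g, Eef2, Eif3e, Eif3f and Eif3h), edgeR called none higher in any line and 1, Eif3h, lower in Tet2. DESeq2 called Eif3h lower in Tet2 as well and Eif3e higher in Tet1. On log2(TPM + 1), limma called Eef1a1 (0.69, adjusted p = 0.014), Eef1g (0.50, adjusted p = 0.026) and Eef2 (0.51, adjusted p = 0.023) higher in Tet2, and Eef1a1 (0.55, adjusted p = 0.048) and Eef1b2 (0.51, adjusted p = 0.036) higher in Tet2dRBD. Their median fitted ratio was 0.11 in Tet1, -0.01 in Tet2 and 0.18 in Tet2dRBD, against 0.09, 0.05 and -0.01 for the 46 other tested members. Eef1a1, the most abundant, had pair ratios of 0.78 and 0.80 in Tet1, 0.63, 0.91, 0.60 and 0.60 in Tet2, and 0.31, 1.404, 0.32 and 0.16 in Tet2dRBD. Its IP thus exceeded input in every pair, but on the TMM scale the ratio was 0.64 (SE 0.30, edgeR adjusted p = 0.22), 0.37 (SE 0.21, adjusted p = 0.19) and 0.26 (SE 0.21, adjusted p = 0.40). Eef2, the translocase gene, had 0.24 (SE 0.22), 0.19 (SE 0.15) and 0.18 (SE 0.15) in the 3 lines and passed in none with edgeR.

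For context, 35 other genes of the translation pathway were all tested. With edgeR, 11 were higher (14.6% of all genes) and 5 lower (18.5%) in Tet2, 6 (7.4%) and 1 (12.1%) in Tet2dRBD, and 4 (2.72%) and 0 (3.18%) in Tet1. Of 11 kinases and regulators, 6 were higher in Tet2, among them Rps6kb1, the S6 kinase gene (1.39, SE 0.23, edgeR adjusted p = 0.0015), Mtor (1.24, SE 0.22, adjusted p = 0.0026) and Rptor (0.80, SE 0.13, adjusted p = 0.0016), while Rps6kb2 was lower (-0.49, SE 0.11, adjusted p = 0.0080). Of 12 poly(A)-binding and initiation partners, 3 were higher and 3 lower, and Pabpc1, the main poly(A)-binding protein gene, was higher in Tet1 (2.85, SE 0.43, adjusted p = 0.019), Tet2 (1.98, SE 0.30, adjusted p = 0.0010) and Tet2dRBD (2.06, SE 0.30, adjusted p = 0.0018). Of 6 termination and recycling genes 1, Gspt1, was higher in Tet2 (1.02, SE 0.30, adjusted p = 0.025), and of 6 mitochondrial factors Mtif2 was higher (1.51, SE 0.30, adjusted p = 0.0039) and Tsfm lower (-0.53, SE 0.13, adjusted p = 0.013).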

How the data were processed

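RIP-seq libraries of polyA RNA were measured for 10 IP and input pairs of 3 knock-in ESC lines. Per the labels and the study's methods, the authors trimmed reads (Trimmomatic), checked them (FastQC), aligned them with Bowtie2 to a RefSeq transcriptome of mm9 and estimated expression with RSEM; versions and the use of strand were not given in the sources used here. The deposited files give an expected count per gene, TPM with 1 added (a score by value range, from which 1 was subtracted for TPM), lengths and FPKM (not used).

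Expected counts were rounded and tested with edgeR 4.0.16 (R 4.3.3) by its quasi-likelihood test, with TMM, genes of at least 1 CPM in at least 2 libraries, the IP and input pair as a block, an IP effect per line, all 20 libraries (7 residual degrees of freedom) and Benjamini-Hochberg adjustment over all 13710 genes tested, at 0.05. Standard errors are the fitted log2 ratio over the square root of F. Inputs of Tet2 and Tet2dRBD were compared without a block. Alternatives used DESeq2 1.42.0, limma 3.58.1, other scalings and filters, single library sets and each pair left out; the IP effect per library set was chosen after seeing the data. The test was also run on counts simulated from its own fitted model. These draws were independent between libraries, so they do not cover close replicates or IP effects that differ between library sets. IP and input of 1 number share a line and number in the labels. Their deviations from the group means correlated by at least 0.19 in Tet1, 0.60 in Tet2 and 0.57 in Tet2dRBD. IP and input of different numbers correlated by -0.22 on average and up to 0.77 in Tet2, and by -0.20 and up to 0.68 in Tet2dRBD. The correlation thus does not single out the same number in every case. With 2 Tet1 replicates, the value for different numbers is by construction the negative of the first, so it cannot check the pairing.

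Depth was 21078995 to 37576638 expected counts per library. Library sets come from numbers in the deposited file names. The members and lists were chosen with earlier results of these data known. Genes named with values were the members called in a line, the 5 with the lowest unadjusted p for each difference and for the inputs, the highest input level of each role, the 3 highest and lowest mean ratios of each line among members with at least 5 TPM, and paralogs. Coding sequences and positions came from GENCODE vM1.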

Additional observations from a re-analysis of the deposited data

Results flagged for a closer look

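Among 56 groups of 4 pairs, log2(IP/input) of 1 pair stood far from the other 3 in 6. The rule is met by about 1 in 20 groups of 4 independent pairs. Replicates 3 and 4 lie close together, so that rate does not apply here and an excess over chance cannot be read. For the same reason, neither of them could easily stand apart. All 6 outlying pairs were replicate 2, the pair of library set B, whose part in them was not tested. In Tet2 they were Eif3c at 2.41, Eif4a2 at 0.997, Eef1a1 at 0.91, Eif4a3 at 0.16 and Eif4ebp1 at 0.15, the last pair lower than the other replicates. In Tet2dRBD it was Eef1a1 at 1.404.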

How the results depend on the processing

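Of the 32 calls of members in the 3 lines, DESeq2 kept 31, set C alone 31, an IP effect per library set 29, no filter on low counts 26, library totals 25, and limma on log2(TPM + 1), merged replicates 3 and 4, and fits of single lines 18 each. Without the replicate block 2 were kept. Counts below are members higher, then lower. In Tet1 (1 and 2) they were 3 higher with DESeq2, 0 and 0 without the replicate block, 16 and 14 in set C alone, 23 and 11 in a fit of that line only, 7 and 6 with an IP effect per library set, and 1 lower with library totals, with no filter, with limma at either pseudocount and with replicates merged. In Tet2 (8 and 11) they were 0 and 1 without the replicate block, 23 and 4 with limma at both pseudocounts, 23 higher in set C alone, 16 higher with an IP effect per library set and 7 lower in a fit of that line only. In Tet2dRBD (2 and 8) they were 0 and 1 without the replicate block, 16 and 2 with limma at 1 TPM added and 17 and 2 at 0.1, 14 and 17 in set C alone, 1 and 2 in a fit of that line only, 7 higher with an IP effect per library set, 5 lower with library totals or no filter and 1 lower with replicates merged. Leaving out a pair gave 0 to 5 higher and 0 to 4 lower in Tet1, 4 to 11 and 5 to 12 in Tet2, and 0 to 6 and 2 to 10 in Tet2dRBD. For Tet2 against Tet2dRBD (0 and 0) DESeq2 gave 1 higher, set C alone 2 and leaving out a pair 0 to 2. For Tet1 against Tet2 set C alone gave 3 and 3, and for the inputs 11 higher, while the replicate block changed no member's call in the inputs. Members above input in every replicate were 10 in Tet1, 5 in Tet2 and 1 in Tet2dRBD at 1.5 times input, 19 in Tet2 and 7 in Tet2dRBD after centring, and 39 in Tet2dRBD from means with no replicate block; leaving out a replicate gave 37 to 40, 30 to 35 and 18 to 26. Signs turned for Eif3g in Tet2 with limma (0.0327 at both pseudocounts) and for Eif4a2 (-0.32) and Eif5a2 (-0.56) in Tet2dRBD in set C alone. The causes were not tested.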
